A study of Mus musculus with 12 samples.

Results

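The immunity-related GTPases of interferon-treated macrophages were examined in RNA sequencing data from ErbB4-deficient and control mice. The 6 members were chosen by name (Irgm1, Irgm2, Igtp, Iigp1, Tgtp1 and Tgtp2), and they were 6 of the 22243 genes in the table, with 8 principal transcripts among them. Levels are in TPM, transcripts scaled to their length and to the library, and all 6 averaged 1 TPM or more over the 12 libraries, as did 8780 genes in all, which were the genes tested. The libraries came from 6 litters of C57Bl/6 mice, with 1 library labelled ErbB4myeKO (LysMCre/ErbB4-floxxed) and 1 labelled ErbB4FF (ErbB4-floxxed, without Cre) from each litter. Both groups carry the floxed ErbB4 allele, and Cre is driven from the Lyz2 locus, which is active in myeloid cells. Bone marrow was grown into macrophages (BM-Mɸs) in M-CSF, and every culture received the M1 stimulus, which was IFNγ at 100 U/ml for 16 h and then LPS at 100 ng/ml over 6 h. No unstimulated culture was analysed here, so induction of the family by the stimulus was not measured. The samples are bulk cultures, in which fewer cells of a type and less RNA per cell cannot be told apart.

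Immunity-related GTPases (IRGs, formerly p47 GTPases) are interferon-inducible proteins by which mouse cells attack vacuoles that hold intracellular parasites and bacteria. The effector proteins, among them Irga6 (the product of Iigp1) and Irgb6 (the product of Tgtp1 and Tgtp2), load onto the vacuole and break its membrane. The regulators Irgm1, Irgm2 and Irgm3 (the product of Igtp) sit on the membranes of the cell and keep the effectors inactive there. The regulators are called GMS proteins and the effectors GKS proteins, after the residue that the first nucleotide-binding motif carries in place of, or as, the usual lysine.

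This division is visible in the coding sequences, which are shown here because it orders the results. The 24 bases over that motif, read from GENCODE M21 (GRCm38), follow for the 5 members on chromosome 11, with the codon that names the subgroup in capitals.
Irgm1: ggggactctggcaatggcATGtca
Irgm2: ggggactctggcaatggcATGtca
Igtp: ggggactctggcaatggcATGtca
Tgtp1: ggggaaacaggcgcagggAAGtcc
Tgtp2: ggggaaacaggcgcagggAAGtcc
The 3 regulators shared all letters of this stretch, and so did both Tgtp genes. Iigp1 was not read for this motif, so only the Tgtp genes stand for the effectors here. Over the whole coding sequence the regulators were 62.2% to 67.1% identical to each other. Tgtp1 and Tgtp2 were 99.7% identical, with 4 mismatches in 1245 aligned bases. Of the 31-base words of the Tgtp1 transcript in GENCODE M21, 94.2% occur in another gene, and of those of Tgtp2, 94.7%. The TPM of these 2 genes therefore rest on 162 and 147 words that no other gene holds, and their separate values are uncertain. The share in another gene was 16.4% for Igtp, which overlaps Irgm2 in the annotation, between 9.86% and 11.7% for the transcripts of Irgm2 and Iigp1, and 2.87% for Irgm1.

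The promoters are shown because the family is known for its interferon elements. RefSeq windows of GRCm38.p6, from 250 bases before to 50 bases after the start of a gene, were found for the 5 members on chromosome 11. The 250 bases before the start were searched on both strands for GAAA, any 2 bases and GAAA (the core of the interferon-stimulated response element, ISRE). They were also searched for TTCNNNGAA (the gamma-activated site, GAS). A stretch of 55 bases of each follows 5′ to 3′ on the strand of the gene, with matches in capitals.
Irgm1: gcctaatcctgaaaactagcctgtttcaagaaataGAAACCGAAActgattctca
Irgm2: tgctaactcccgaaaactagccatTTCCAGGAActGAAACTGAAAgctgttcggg
Igtp: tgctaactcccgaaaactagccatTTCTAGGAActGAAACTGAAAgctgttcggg
Tgtp1: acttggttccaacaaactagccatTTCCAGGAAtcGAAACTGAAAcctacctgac
Tgtp2: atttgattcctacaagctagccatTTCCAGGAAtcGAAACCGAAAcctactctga
The stretches lie at chr11:48871425-48871479 (Irgm1, minus strand), chr11:58214878-58214932 (Irgm2, plus strand), chr11:58199487-58199541 (Igtp, plus strand), chr11:48992304-48992358 (Tgtp1, minus strand) and chr11:49064263-49064317 (Tgtp2, minus strand). The ISRE core was present in these 250 bases in all 5 members and in 2.98% of 32851 promoters searched in the same way. It began between 24 and 77 bases before the start of the gene in RefSeq. These starts are not those of GENCODE, and the stretches of Irgm1, Irgm2 and Tgtp1 lie inside the GENCODE extents given with these genes. Irgm1 held a further core that overlaps the marked one, 30 bases before the RefSeq start. The GAS letters lay just upstream of the core in Irgm2, Igtp, Tgtp1 and Tgtp2, and in 7.02% of all promoters. These matches describe letters and not bound sites.

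All members were among the more abundant transcripts of M1-activated ErbB4FF macrophages. In mean TPM over 6 ErbB4FF libraries the order was Iigp1 (421 ± 119, SD), Igtp (395 ± 114), Irgm1 (266 ± 86.1), Tgtp1 (229 ± 87.6), Irgm2 (102 ± 21.7) and Tgtp2 (80.3 ± 55.1). By this mean Iigp1 ranked 263 and Tgtp2 ranked 1063 among the 8780 genes. Each member was compared with the next in this order inside each library (5 pairs, exact two-sided permutation test by sign flips, whose smallest p is 0.0312, adjusted over the pairs). No neighbours differed at an adjusted p under 0.05, but the design all but fixes this: a pair split the same way in 6 of 6 libraries passes only if at least 4 of the 5 pairs are, and alone it has an adjusted p of 0.156. The widest step was between Tgtp1 and Irgm2, a log2 difference of 1.08 ± 0.48 (SD, n = 6 libraries), with Tgtp1 higher in 6 of 6 libraries (exact p = 0.0312, adjusted p = 0.156). Iigp1 and Igtp were the closest, with a log2 difference of 0.08 ± 0.39 and Iigp1 higher in 4 of 6 libraries (exact p = 0.594, adjusted p = 0.594). The other 3 steps, Igtp to Irgm1, Irgm1 to Tgtp1 and Irgm2 to Tgtp2, had log2 differences of 0.60, 0.24 and 0.61, each in the same direction in 5 of 6 libraries, and adjusted p of 0.156, 0.312 and 0.312. In the ErbB4myeKO libraries the mean TPM of the members had the same order.

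**Figure D1:**
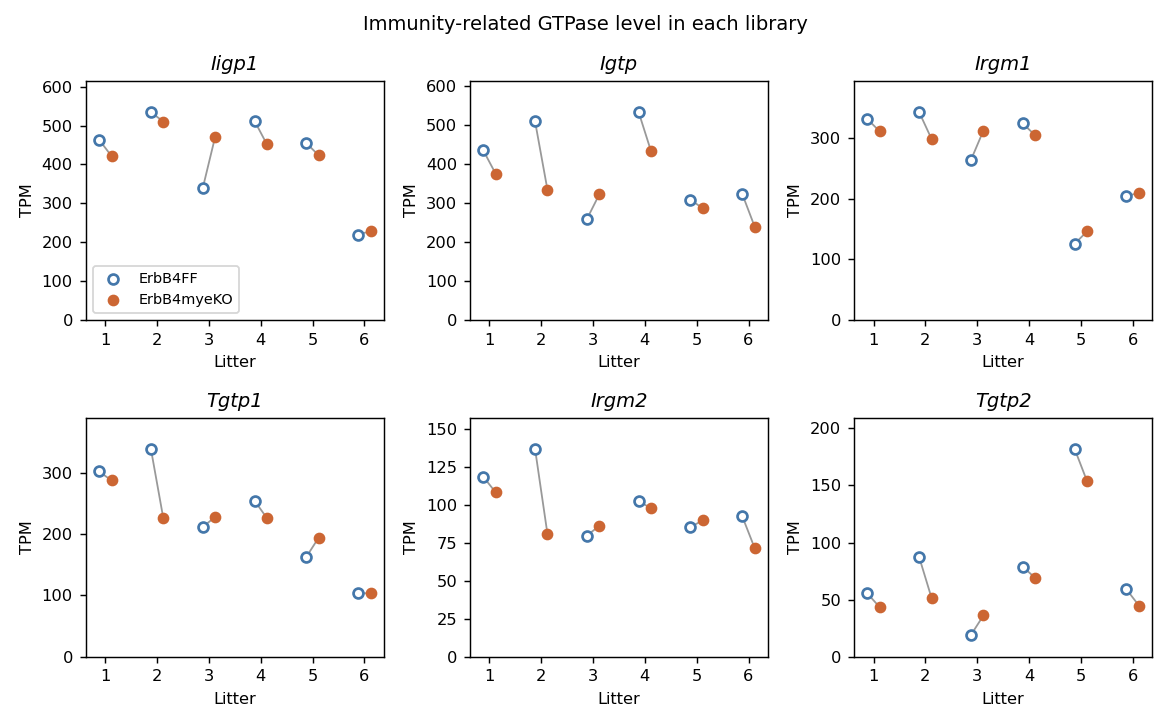
Level in TPM (vertical axis, from 0) of each member in every library, by litter (horizontal axis). Open circles are ErbB4FF and filled circles ErbB4myeKO libraries, and a line joins littermates. Tgtp2 was highest and Irgm1 lowest in litter 5, and Iigp1 and Tgtp1 were lowest in litter 6, in both libraries of the litter.

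Whether loss of ErbB4 in myeloid cells alters the family was asked by comparing littermates. No member passed the test: in limma, with litter as a block and p-values adjusted over 8780 genes by the Benjamini-Hochberg method, 0 of 6 had an adjusted p under 0.05, and the share of all genes tested was 0.00%. At an unadjusted p under 0.05 there were 0 of 6 members and 8.21% of all genes. The members' log2 fold changes, ErbB4myeKO against ErbB4FF on the log2(TPM + 0.5) scale, lay between -0.23 and 0.02, with a median of -0.13, and the median of all genes tested was -0.00068. No member was lower or higher in the ErbB4myeKO library in all 6 litters, which 2.31% and 2.51% of all genes were. The targeted gene does not check the labels, since Erbb4 was listed at a mean of 0.45 TPM in the ErbB4FF and 0.583 TPM in the ErbB4myeKO libraries, below the filter. Lyz2, the gene whose locus carries Cre, had a mean log2 ratio of -0.59 ± 1.00 (SD over litters, 95% interval -1.37 to 0.20, limma adjusted p = 0.641). It was lower in the ErbB4myeKO library in 5 of 6 litters and higher in 1, at a log2 ratio of 1.43. The lowest ratio was -1.20, so Lyz2 does not settle the labels either.

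Among the regulators, Irgm1 (chr11:48861968-48871683, minus strand, GRCm38, protein coding) governs autophagy and lysosome handling besides its part in restraining effectors. Its ErbB4FF levels in litters 1 to 6 were 332, 343, 264, 324, 126 and 205 TPM, and its ErbB4myeKO levels were 311, 299, 313, 305, 146 and 210 TPM. The groups overlapped throughout, and the libraries of litters 5 and 6 were the lowest of both. The log2 ratio averaged 0.02 ± 0.18 (SD, n = 6), with 3 litters higher and 3 lower (exact permutation p = 0.844). Limma gave a 95% interval of -0.16 to 0.19 and an adjusted p of 0.945, so that a change of more than 1.14-fold upward or to less than 0.898 of the control level lay outside the interval. The direction was not stable: it was below 0 without litter 3 (-0.025) and without litter 5 (-0.021).

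Irgm2 (chr11:58199618-58222782, plus strand) encodes a regulator that sits mainly on the Golgi and on vacuoles. It stood at 118, 137, 79.6, 102, 85.2 and 92.2 TPM in the ErbB4FF libraries of litters 1 to 6 and at 108, 80.6, 86.1, 97.6, 89.8 and 71.3 TPM in the ErbB4myeKO libraries. The ErbB4myeKO level was below that of the littermate in 4 of 6 litters, and the difference was greatest in litter 2. The log2 ratio averaged -0.19 ± 0.33 (SD, n = 6, exact permutation p = 0.25), with a limma 95% interval of -0.47 to 0.09 and an adjusted p of 0.654. Without litter 2 it was -0.076, with an adjusted p of 0.931. Irgm2 has a pair of principal transcripts. The minor one (ENSMUST00000058704) was listed at 0.587 to 3.07 TPM in 9 libraries, but at 14.7 TPM in the ErbB4FF library of litter 1 and at 22.5 and 41.7 TPM in the ErbB4myeKO libraries of litters 2 and 3. The authors' mean for it was 54.0 normalized estimated counts. With the major transcript (ENSMUST00000108836) alone, the log2 fold change of Irgm2 was -0.39 (adjusted p = 0.64).

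Igtp (chr11:58199556-58207591, plus strand) encodes Irgm3, the regulator of the endoplasmic reticulum and lipid droplets. Its levels were 436, 510, 259, 534, 309 and 324 TPM in ErbB4FF and 376, 334, 323, 433, 287 and 239.6 TPM in ErbB4myeKO libraries of litters 1 to 6. The ErbB4myeKO library was the lower of the littermates in every litter but litter 3. A gene lower in at least 5 of 6 litters was no rarity, since 14.3% of all genes tested were. The average log2 ratio of Igtp was the lowest of the members at -0.23 ± 0.32 (SD, n = 6, exact permutation p = 0.156), with a limma 95% interval of -0.49 to 0.04, an unadjusted p of 0.087 and an adjusted p of 0.614. Without litter 3 it was -0.33, with an unadjusted p of 0.00599 and an adjusted p of 0.515, and without litter 2 it was -0.15, with an unadjusted p of 0.226 and an adjusted p of 0.925.

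Among the effectors, Iigp1 (chr18:60376027-60392634, plus strand) encodes Irga6, which assembles on the vacuole of Toxoplasma gondii. It stood at 464, 534, 339, 512, 455 and 220.02 TPM in ErbB4FF and at 422, 510.5, 471, 452, 423 and 228 TPM in ErbB4myeKO libraries of litters 1 to 6. Litter 6 was lowest in both groups, and litter 3 held the widest gap between littermates, with the ErbB4myeKO library higher. The log2 ratio averaged 0.0065 ± 0.24 (SD, n = 6, 4 litters lower and 2 higher, exact permutation p = 1.0), with a limma 95% interval of -0.21 to 0.22 and an adjusted p of 0.985. Its direction was below 0 without litter 3 (-0.087), without litter 6 (-0.0029) and under median-ratio scaling (-0.0034).

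Tgtp1 (chr11:48985327-48994172, minus strand) and Tgtp2 (chr11:49057194-49064206, minus strand) encode near-identical forms of Irgb6, among the first effectors to reach the vacuole. Tgtp1 was listed at 302, 338, 211, 254, 163 and 103 TPM in ErbB4FF and at 287, 225, 228, 226, 194 and 103 TPM in ErbB4myeKO libraries. Tgtp2 was listed at 55.4, 87.1, 19.2, 78.9, 182 and 59.0 TPM in ErbB4FF and at 43.3, 51.3, 36.2, 68.9, 154 and 44.9 TPM in ErbB4myeKO libraries. Tgtp2 varied most of all members, 9.49-fold between its lowest and its highest library, where the other members varied from 1.91-fold (Irgm2) to 3.27-fold (Tgtp1).

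The log2 ratio of Tgtp1 averaged -0.08 ± 0.29 (SD, n = 6, exact permutation p = 0.656, limma 95% interval -0.33 to 0.17, adjusted p = 0.832), and without litter 2 it was 0.024. That of Tgtp2 was -0.17 ± 0.56 (exact permutation p = 0.469, limma 95% interval -0.62 to 0.28, adjusted p = 0.787), lower in 5 of 6 litters. Without litter 3 the value of Tgtp2 was -0.39, with an unadjusted p of 0.00519 and an adjusted p of 0.515, and without litter 2 it was -0.056, with an unadjusted p of 0.783 and an adjusted p of 0.973. Since the words of the pair are largely shared, their sum is the firmer measure. The sum was 309 ± 95.3 TPM in ErbB4FF and 277 ± 70.6 TPM in ErbB4myeKO libraries (SD, n = 6 each). Its log2 ratio was -0.14 ± 0.27 (SD, n = 6, lower in 4, exact permutation p = 0.312, limma 95% interval -0.37 to 0.10, adjusted p = 0.686).

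**Figure D2:**
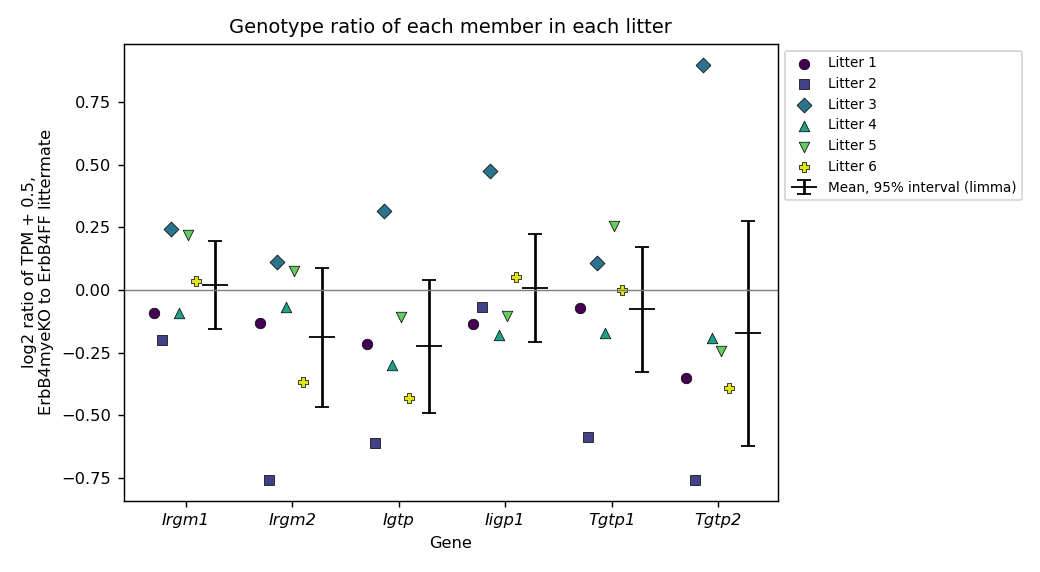
Log2 ratio of TPM + 0.5 between the ErbB4myeKO and the ErbB4FF littermate (vertical axis) for each member (horizontal axis). Each symbol is a litter, and the black bar is the mean with its 95% interval from limma. Every interval includes 0, all members lie below 0 in litters 1, 2 and 4, and all lie above 0 in litter 3.

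All members shared a direction in 4 of 6 litters, and this direction was not the same in each. All 6 were lower in the ErbB4myeKO library in litters 1, 2 and 4, and all 6 were higher in it in litter 3. In litter 5 the count was 3 lower and 3 higher, and in litter 6 it was 4 lower and 2 higher. These counts held under median-ratio scaling and under scaling to the listed total, except for 3 and 3 in litter 6 under the second. The median log2 ratio of the members was -0.13, -0.60, 0.28, -0.18, -0.01 and -0.18 in litters 1 to 6. Over all genes the share with a lower value in the ErbB4myeKO library was between 46.9% and 53.6% in every litter. Members on the same side within a litter are not separate observations, since they share a pair of libraries and, for some, sequence. Across the 6 litters, the log2 ratios of Igtp and Tgtp2 had a Pearson correlation of 0.95, those of Irgm1 and Tgtp1 of 0.88, and those of Irgm2 and Iigp1 of 0.29, the lowest of the 15 pairs.

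Levels differed between litters as well as between littermates. The SD of the 6 litter means on the log2 scale was 0.87 for Tgtp2, 0.55 for Tgtp1, 0.50 for Irgm1, 0.44 for Iigp1, 0.33 for Igtp and 0.20 for Irgm2. Without any difference between litters, this SD would on average be about 0.5 times that of the within-litter ratio, which is 0.28, 0.14, 0.09, 0.12, 0.16 and 0.16 in the same order. The excess was widest for Irgm1 (5.56 times) and narrowest for Irgm2 (1.20 times), and it was not tested. The labels give each litter a batch letter of its own, so litter and batch cannot be told apart.

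Litter 5 stood apart for Irgm1 and Tgtp2, which share a cluster with Tgtp1. Irgm1 was at 126 and 146 TPM there, below the other 10 libraries, and Tgtp2 at 182 and 154 TPM, above the other 10. Tgtp1, at 163 and 194 TPM, was inside their range. Tgtp2 made up 52.8% and 44.2% of the Tgtp1 and Tgtp2 sum in litter 5, between 8.32% and 23.7% in litters 1 to 4, and 36.3% and 30.3% in litter 6. The sum itself was 345 and 348 TPM in litter 5, inside the range of the other litters. In litter 6 it was 162 and 148 TPM, the lowest of all libraries.

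Litter 5 differed at many genes: both of its libraries lay below the other 10 for 19.9% of all genes tested and above them for 20.2%. Around Irgm1, Tgtp1 and Tgtp2, within 0.25 Mb, 13 genes were tested, and both libraries of litter 5 lay below the other 10 for 7 and above for 2 of them. These neighbours were chosen after their values were seen, and no test was made. The IRG-like genes Gm5431 and 9930111J21Rik2 stood at 5.39 and 6.58 TPM and at 3.95 and 4.58 TPM in litter 5, where litters 1 to 4 held medians of 51.0 and 38.2 TPM. 9930111J21Rik1 was at 0.184 and 0.23 TPM in litter 5 against a median of 10.4 TPM. Psme2b, a neighbour that is no GTPase gene, was at 3.50 and 2.63 TPM against a median of 31.3 TPM. Ifi47, which encodes the GTPase Irgd and is next to Tgtp2 among the genes tested, did not share the low level, with 860 and 748 TPM against a median of 757 TPM.

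Igtp and Irgm2, which lie in a separate cluster of chromosome 11, and Iigp1 on chromosome 18 were also inside the range of the other 10 libraries in litter 5. Low values in litter 5 were not confined to the cluster of Irgm1: F830016B08Rik, an IRG relative beside Iigp1, was at 5.23 and 4.29 TPM against 9.90 to 37.1 TPM in litters 1 to 4, below the other 10 libraries. Within 0.25 Mb of Igtp and Irgm2, 1 of 8 genes tested was below and 1 above the other 10, and within the same distance of Iigp1, 2 of 7 were below and 0 above. The log2 differences of Igtp, Irgm2 and Iigp1 from litters 1 to 4 were -0.39, -0.19 and -0.06, beside -1.19 for Irgm1, -0.52 for Tgtp1 and 1.72 for Tgtp2. The median over all genes tested was 0.08. Scaled to the listed total, the values of litter 5 were -0.64 for Igtp, -0.43 for Irgm2, -0.31 for Iigp1, -1.44 for Irgm1, -0.77 for Tgtp1 and 1.48 for Tgtp2. Litter 6 was different again: Iigp1 and Tgtp1 were below the other 10 libraries in both of its libraries, by log2 differences from litters 1 to 4 of -1.03 and -1.30. Over all genes tested, 2.85% were below the other 10 in litter 6.

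**Figure D3:**
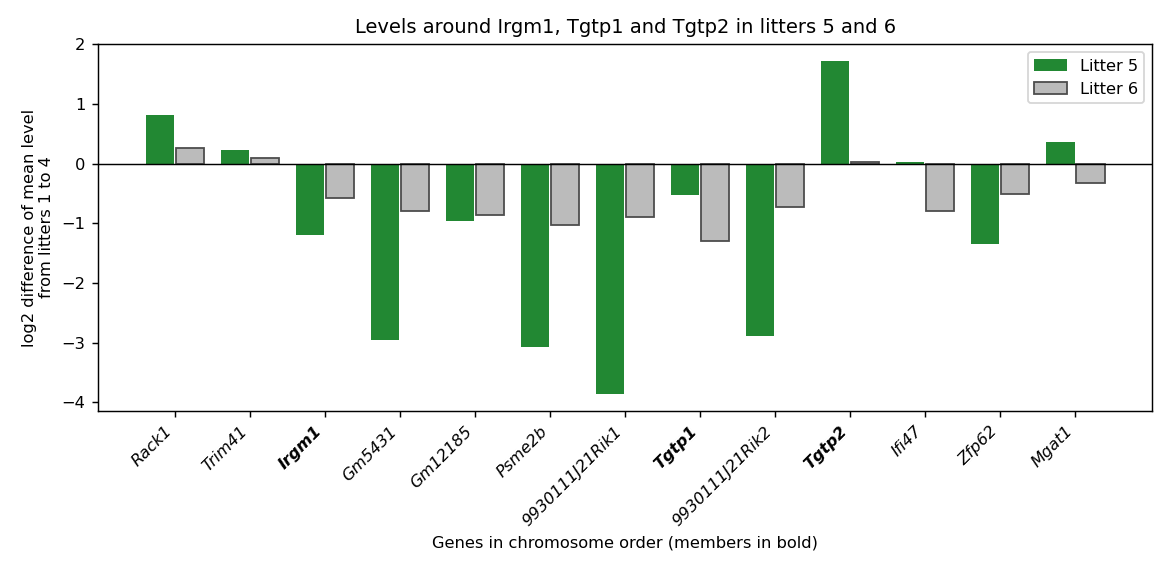
Log2 difference of the mean log2(TPM + 0.5) of litter 5 (green) and of litter 6 (grey) from that of litters 1 to 4 (vertical axis), for the 13 genes tested around Irgm1, Tgtp1 and Tgtp2 in chromosome order (horizontal axis, members in bold). In litter 5 the bars reach -3.86 at 9930111J21Rik1 and 1.72 at Tgtp2, with Ifi47 at 0.02 (-0.0077 under median-ratio scaling and -0.23 when scaled to the listed total).

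Other measures moved with these litters, and their part in the values was not tested. The summed TPM of 4 Y-linked genes was 36.1 to 49.2 in litters 1 to 4 and 0.202 to 0.406 in litters 5 and 6. Of 8 neutrophil markers, 3 (Mpo, Elane and Ly6g) were below 1 TPM in every library, and the sum of the list was 39.6 to 72.3 TPM in litters 1 to 4, 185 to 214 TPM in litter 5 and 153 to 371 TPM in litter 6. The 6 lymphocyte and 4 erythroid markers were below 1 TPM in every library, and the macrophage markers were present in all libraries. The 6 macrophage markers summed to 1865 to 2466 TPM in litters 1 to 4, to 1578 and 1650 TPM in litter 5, the lowest of all libraries, and to 1860 and 2124 TPM in litter 6. Ifng, the gene of the cytokine given to the cells, was listed at 2.44 and 4.52 TPM in litter 5 and at no more than 1.10 TPM elsewhere. The TPM listed for principal transcripts made up 71.4% and 74.7% of the full TPM scale in litter 5 and to between 59.0% and 64.9% in the other libraries.

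The genes whose pattern was most like that of the members were found by Pearson correlation with the mean z-score of the 6 members over 12 libraries, among 5769 other genes that averaged 5 TPM or more. They were Cxcl11 (0.93), a ligand of CXCR3, Ms4a6b (0.92), a membrane-spanning 4A protein, the IRG-like Gm4951 (0.92), Gpr65 (0.90), a proton-sensing receptor, Lrrc4 (0.89) and Vsir (0.89), which encodes the checkpoint protein VISTA. These correlations describe libraries that share litters. Over the 6 within-litter ratios the values were 0.88, 0.85, 0.88, 0.65, 0.92 and 0.33 in the same order. Between members, the correlation over 12 libraries ranged from -0.57 for Irgm1 and Tgtp2 to 0.86 for Iigp1 and Tgtp1. Without litter 5 that of Irgm1 and Tgtp2 was 0.29, and that of Irgm1 and Iigp1 was 0.97, where it was 0.36 with all litters.

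The listed IRG relatives had values of the same small size as the members. Of 17 symbols listed, 8 were in the table and 7 passed the filter. No relative had an adjusted or an unadjusted p under 0.05 in limma, where 8.21% of all genes tested had the latter. All 7 had a log2 fold change below 0, from -0.17 to -0.03 with a median of -0.09, as did 50.2% of all genes tested, and all 7 remained below 0 under both other scalings. The lowest of these 7 was Gm5431 (-0.17, adjusted p = 0.653), followed by 9930111J21Rik2 (-0.13, adjusted p = 0.782), Gm12185 (-0.12, adjusted p = 0.792) and 9930111J21Rik1 (-0.09, adjusted p = 0.868). Ifi47 (Irgd), which was not on this list, was at -0.20 (adjusted p = 0.603). Gm4841, which lies between the relatives Gm4951 and F830016B08Rik on chromosome 18, was also off the list. It was lower than all those listed, at -0.33 (adjusted p = 0.603, mean 29.1 TPM). The annotated extent of Gm12185 overlaps those of 9930111J21Rik1 and Tgtp1. Gm4951, F830016B08Rik and Irgq were at -0.04, -0.03 and -0.04 (adjusted p = 0.88, 0.953 and 0.919). Irgc1, which is known from the testis, had a mean of 0.0088 TPM and was not tested.

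The guanylate-binding proteins (GBPs), larger GTPases that act with the IRGs on vacuoles, were all present, and 0 of 11 passed an adjusted p under 0.05. At an unadjusted p under 0.05, 1 was lower and 0 were higher, where 4.38% of all genes were lower and 3.83% higher. Their median log2 fold change was -0.09, and 10 of 11 were below 0. The most abundant were Gbp2, with a mean of 2405 TPM over 12 libraries and a log2 fold change of -0.04 (adjusted p = 0.832), Gbp5 (814 TPM, -0.09, adjusted p = 0.663) and Gbp3 (469 TPM, -0.08, adjusted p = 0.725). Those with the smallest p were Gbp8 (-0.31) and Gbp9 (-0.21), with an adjusted p of 0.603 each, and their annotated extents overlap.

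Of the 13 receptors, kinases and factors by which interferon induces the family, 0 passed an adjusted p under 0.05, while at an unadjusted p under 0.05 there were 2 lower and 1 higher, beside 4.38% and 3.83% of all genes tested. The median log2 fold change was -0.03. Ifngr2, the signal-transducing chain of the IFNγ receptor, was at 112 TPM in ErbB4FF and 97.9 TPM in ErbB4myeKO libraries, lower in 6 of 6 litters, as were 2.31% of all genes tested, with an average log2 ratio of -0.20 ± 0.10 (SD over litters, limma adjusted p = 0.603). Tyk2, a kinase of the type I interferon receptor, was at 4.16 and 6.83 TPM, and its log2 ratio averaged 1.03 ± 1.14 (SD over litters, limma adjusted p = 0.603). Its values ran from 0 to 20.3 TPM in ErbB4FF (median 0.809) and from 0 to 27.3 TPM in ErbB4myeKO libraries (median 2.89). Its ratio thus rests in part on values near 0. Ifngr2 and Tyk2 were named for the smallest p-values of their list. The most abundant, the factors Irf8 and Irf1 and the kinase Jak2, had log2 fold changes of 0.02, -0.05 and 0.02 and adjusted p between 0.819 and 0.959.

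The ubiquitin-like conjugation factors place the autophagy proteins that direct IRGs to vacuoles. Of 13 tested, 0 passed an adjusted p under 0.05, and at an unadjusted p under 0.05 there were 1 higher and 0 lower, beside 3.83% and 4.38% of all genes tested. The median log2 fold change was -0.02. The receptor gene Sqstm1 (p62) was higher in the ErbB4myeKO library in 6 of 6 litters, as were 2.51% of all genes tested, at a mean of 888 against 762 TPM, and its log2 ratio averaged 0.29 ± 0.21 (SD over litters, limma adjusted p = 0.603). Gabarap, Atg3 and the ubiquitin ligase gene Traf6 were at -0.06, -0.02 and 0.18, with adjusted p of 0.793, 0.943 and 0.603.

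Of 8 other IFNγ effectors of macrophages, 0 had an adjusted or an unadjusted p under 0.05, beside 8.21% of all genes tested for the latter, and their median log2 fold change was -0.02. Acod1, which makes itaconate, was at -0.01 with a mean of 4571 TPM (adjusted p = 0.945), and the chemokine gene Cxcl9 and the oxidase subunit gene Cybb were at 0.21 and 0.11 (adjusted p = 0.603 and 0.618). Ciita, the regulator of MHC class II, was at 0.29 (adjusted p = 0.603).

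**Figure D4:**
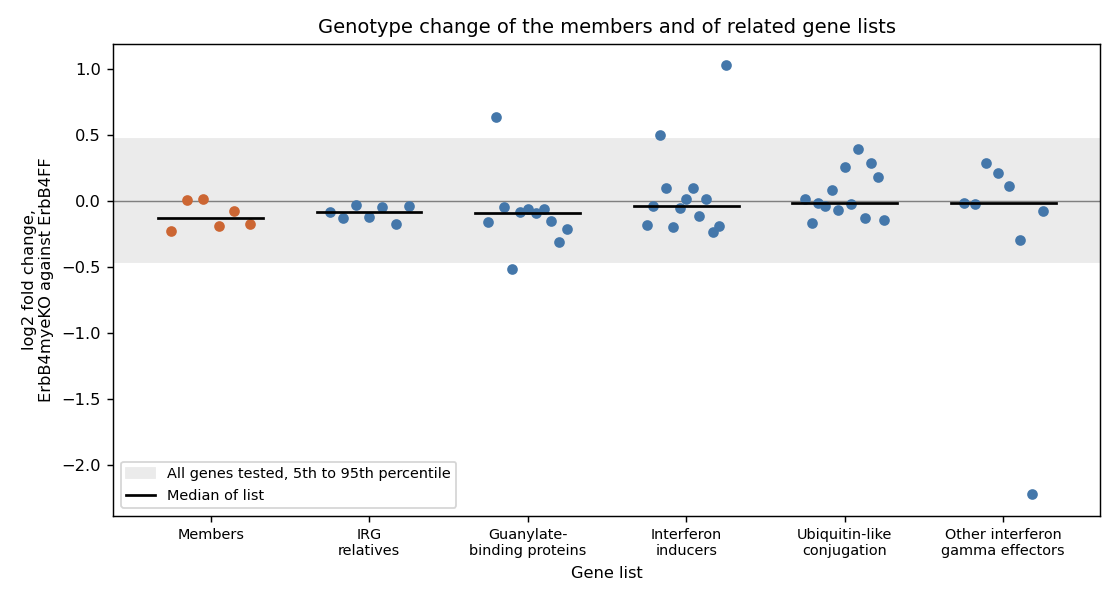
Log2 fold change, ErbB4myeKO against ErbB4FF (vertical axis), of each gene tested in the members and in 5 related lists (horizontal axis). Points are genes, black lines are medians and the grey band is the 5th to 95th percentile of all genes tested (-0.46 to 0.47). All members lie inside the band, and the lowest point is Nos2 at -2.22 (adjusted p = 0.653).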

How the data were processed

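RNA of M1-activated BM-Mɸs was sequenced as single-end reads of 75 bp. The authors pseudoaligned them with kallisto to the mouse transcriptome (mm10 in the submitters' processing notes, release and version not given in the sources used here) and deposited TPM of principal transcripts, together with sleuth's p-value, q-value and log2 ratio, which were not used. The authors also deposited, per transcript, the natural log of normalized estimated counts averaged over libraries. It was used only to state depth, since the study gives only a nominal depth and no count per library was analysed here, and on the linear scale it was 54.0 for the minor Irgm2 transcript, 403 for the minor Iigp1 transcript, and 1037 (Tgtp2) to 6720 (Iigp1) for the others. The spread between litters is the measure of precision.

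The table had 29213 lines for 28808 transcripts, and 405 repeats were dropped. TPM were summed per gene. Genes that averaged 1 TPM or more were fitted on the log2(TPM + 0.5) scale in limma 3.58.1 (R 4.3.3, eBayes, trend on), where litter was the block. The fit was also run on simulated data, with planted changes larger than those of the members and independent noise for each gene. That run does not measure power for changes as small as those of the members. For single members an exact two-sided permutation test used the 64 swaps within litters (smallest p 0.0312). The pair numbers mark littermates in the design of the study, and littermates' deviations from their group means correlated between 0.273 and 0.774. Libraries of a group correlated between 0.803 and 0.967, and none was identical to another. Other steps used Python 3.11.15, numpy 2.4.6, pandas 2.3.3, Biopython 1.88 and matplotlib 3.10.9. Symbols and positions come from GENCODE M21.

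The members and lists were chosen with earlier results of these data known. Genes named were the members, Erbb4 and Lyz2, every gene of the list of IRG relatives that is in the table, in each other list the 3 with the highest mean TPM and the 2 with the smallest p, and the 6 most like the members in pattern. Markers of cell types (Ifng, Mpo, Elane and Ly6g) come from separate lists. Psme2b, Ifi47, Gm4841, Nos2 and Igkv1-88 fall outside this rule and were named after their values were seen. Alternatives were the fit without the block, pseudocounts of 0.1 and 1, no filter, a filter of 5 TPM, median-ratio and listed-total scaling, limma without trend, the transcript with the highest mean alone, Tgtp1 and Tgtp2 summed, and each litter left out. Litters 1 to 4 alone were added after seeing the data.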

Additional observations from a re-analysis of the deposited data

Results flagged for a closer look

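In 18 groups of 6 values (TPM in each genotype and the within-litter log2 ratio of each member), 4 held a value set apart from the others by more than Dixon's 95% criterion. The criterion flags about 1 of 20 groups of normally distributed values. These groups share libraries, the ratios are made from the TPM, and the rate over all genes was not computed. The count is therefore not read as an excess. Iigp1 was at 228 TPM in the ErbB4myeKO library of litter 6, the lowest of its group. Tgtp2 was at 154 TPM in the ErbB4myeKO library of litter 5, the highest of its group. The within-litter log2 ratios of Iigp1 (0.47) and Tgtp2 (0.90) in litter 3 were the highest of their 6 litters.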

How the results depend on the processing

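None of the 98 results for single members under an alternative had an adjusted p under 0.05 (smallest 0.515), and 7 had the opposite direction to the reported value. Among these, Irgm1 was -0.035 in litters 1 to 4 alone, an alternative chosen after seeing the data, and Iigp1 was -0.0034 under median-ratio scaling. The cause was not tested. With 1 litter left out the log2 fold change ranged from -0.025 to 0.063 for Irgm1, from -0.25 to -0.076 for Irgm2, from -0.33 to -0.15 for Igtp, from -0.087 to 0.044 for Iigp1, from -0.14 to 0.024 for Tgtp1 and from -0.39 to -0.056 for Tgtp2. Over all genes, without the replicate block 75 genes had an unadjusted p under 0.05 instead of 721, and the count at an adjusted p under 0.05 was 0 in both fits. The block changed no call of a member. With 1 litter left out these counts ranged from 413 (without litter 2) to 864, with 458 without litter 4, and from 0 to 1, the 1 gene being Igkv1-88 without litter 3. With the transcript of the highest mean alone, the average log2 difference between Iigp1 and Igtp was -0.0096, while their order by mean TPM (396 and 395) did not change. With 1 litter left out the steps ranged from -0.015 to 0.21 (Iigp1 to Igtp), 0.46 to 0.73 (Igtp to Irgm1), 0.092 to 0.36 (Irgm1 to Tgtp1), 1.01 to 1.26 (Tgtp1 to Irgm2) and 0.33 to 0.95 (Irgm2 to Tgtp2), where the smallest p that 5 litters allow is 0.0625. Scaling the listed TPM of every library to the full TPM scale gave higher levels, for example 662 TPM for Iigp1 and 425 TPM for Irgm1. A covariate from Y-linked genes was not run, since it is constant within each litter and cannot be told apart from the block. Only a nominal depth is given and no read count per library was analysed here, which leaves the precision of single values of Tgtp1, Tgtp2 and the minor Irgm2 transcript unmeasured.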
